A study of Mus musculus with 3 samples.

Results

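Nav1, Nav2 and Nav3 are the 3 members of the neuron navigator family, and they were taken by their symbols from 32285 gene rows of a single-nucleus RNA-sequencing experiment on mouse prefrontal cortex (PFC). Navigators are large cytoplasmic proteins that bind microtubules, travel with their growing plus ends and shape the outgrowth and steering of neurites. Nav1 is known from migrating and extending neurons, where it works together with the Rac activator Trio, and Nav2 was first found as a gene induced by retinoic acid during neurite outgrowth. Each protein ends in an ATPase domain of the AAA type, which carries a phosphate-binding loop (P-loop).

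The experiment held 3 libraries, each made from 1 pool of male mice aged 6 to 8 weeks. The first library came from 5 wild-type mice of the strain labelled C57BL/6, named C57BL/6J in the methods and here. The second came from 4 Nav1 KO mice on the same background, which were homozygous for a CRISPR deletion at the end of exon 1 that also introduces an early stop codon. The third came from the inbred strain BTBR T<+> Itpr3<tf>/J (BTBR), for which the number of mice was not given in the sources used here. No treatment was stated for any of them. The question addressed was whether Nav2 or Nav3 differed in the nuclei where Nav1 was lower. With 1 library per group no test between groups was possible, so each value is given with a 95% interval that covers counting error only and leaves out the spread between mice. Strain, genotype and library preparation cannot be told apart.

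After filtering, 14630 C57BL/6J, 14056 Nav1 KO and 14777 BTBR nuclei were kept, with a median of 2074, 2754 and 2510 unique molecular identifiers (UMIs, taken as counts) per nucleus. Pairs of libraries shared 55 to 66 kept barcodes, and automatic doublet calling was not usable because it marked 0 or 1 nuclei per library. All 3 libraries were labelled as neurons from PFC. The methods of the paper, however, describe collecting nuclei both with and without the neuronal marker NeuN, so as to include different types of cells. Besides cortical neurons, the sorted nuclei carried markers of glia, meninges, striatum and olfactory bulb. Clustering without the 3 navigators gave 31 clusters, of which 23 earned one of 18 class names from lists of marker genes. These classes held 69.7% of C57BL/6J, 81.3% of Nav1 KO and 65.5% of BTBR nuclei. BTBR nuclei with layer 2/3 or middle layer markers sat almost wholly in clusters of their own (1545 of 1634 and 1459 of 1661 nuclei), and the latter cluster was led by the immediate early genes Fos, Egr4 and Arc. The mitral or tufted-like and ensheathing glia-like classes held only 37 and 22 C57BL/6J nuclei.

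The genes lie on 3 chromosomes of the mm10 (GRCm38) build. Nav1 (ENSMUSG00000009418) spans 135434580 to 135607295 on the minus strand of chromosome 1, Nav2 (ENSMUSG00000052512) spans 48908716 to 49610090 on the plus strand of chromosome 7, and Nav3 (ENSMUSG00000020181) spans 109681259 to 110456204 on the minus strand of chromosome 10. In the GENCODE M21 annotation the longest coding transcripts, Nav1-202, Nav2-202 and Nav3-201, hold 30, 38 and 39 exons and 1875, 2432 and 2366 coding codons. The stretch below is the last 240 bases of Nav1 exon 1, all coding, at chr1:135584555-135584794 on the minus strand. It is shown because the deletion of the Nav1 KO lies at the end of this exon.
Nav1 exon 1: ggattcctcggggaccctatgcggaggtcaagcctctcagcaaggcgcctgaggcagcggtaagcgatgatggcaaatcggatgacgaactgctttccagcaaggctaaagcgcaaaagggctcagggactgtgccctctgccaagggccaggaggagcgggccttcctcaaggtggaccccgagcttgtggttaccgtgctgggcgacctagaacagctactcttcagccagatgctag

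The end of exon 1 is 11966 bases from the 3′ end of Nav1-202, and the library chemistry tags transcripts at the 3′ side. A Nav1 count in the Nav1 KO library therefore did not show whether the deletion was present or whether a full protein could be made. It measured only how much navigator RNA remained, and the residual Nav1 counts in that library do not check its label.

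The members are related, but their annotated transcripts shared few or no stretches of 30 bases. Reads and introns were not compared. The P-loop shared by the members is shown as a coding sequence, because this is the family's most recognisable common feature. The 24 capital bases encode the loop (glycine, any 4 residues, glycine, lysine, then serine or threonine), at chr1:135452274-135452297 in exon 24 of Nav1 on the minus strand, chr7:49594327-49594350 in exon 32 of Nav2 on the plus strand and chr10:109703407-109703430 in exon 33 of Nav3 on the minus strand, each with 60 coding bases before and after. Where the same residue pattern matched more than once, the last match, in the C-terminal part of the protein, is shown.
Nav1 P-loop: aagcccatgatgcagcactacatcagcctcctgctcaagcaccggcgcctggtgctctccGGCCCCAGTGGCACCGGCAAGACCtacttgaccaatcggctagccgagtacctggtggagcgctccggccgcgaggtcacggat
Nav2 P-loop: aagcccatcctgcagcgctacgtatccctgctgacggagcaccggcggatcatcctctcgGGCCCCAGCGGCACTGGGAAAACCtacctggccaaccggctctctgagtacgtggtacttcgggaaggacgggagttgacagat
Nav3 P-loop: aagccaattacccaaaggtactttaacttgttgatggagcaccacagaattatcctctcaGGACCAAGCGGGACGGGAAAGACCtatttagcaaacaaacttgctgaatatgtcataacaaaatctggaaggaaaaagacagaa

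Over these 144 bases Nav1 and Nav2 were the same at 102, Nav2 and Nav3 at 89, and Nav1 and Nav3 at 79. The longest run of identical bases between any pair was 10. Across all annotated transcripts Nav1 shared 0 stretches of 30 bases with Nav2 or Nav3, and Nav2 and Nav3 shared 3.

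Nav1 was high in a few classes and low in others, and the order was similar in the 3 libraries. Levels are given as CPM, a gene's counts scaled to a common total of all counts in the class, and they are compared between classes within a gene and not between genes, since intron length and priming sites differ. The mitral or tufted-like class, the projection neurons of the olfactory bulb marked by Eomes and Cdhr1, stood first in each library. Its Nav1 level was 1091 CPM in C57BL/6J (921 to 1283), 874 CPM in Nav1 KO (839 to 910) and 356 CPM in BTBR (317 to 397). These 3 intervals did not overlap, although those of C57BL/6J and Nav1 KO nearly met.

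Layer 5 extratelencephalic-like neurons, which project below the cortex and were marked by Pou3f1 and Bcl11b, and oligodendrocyte precursor-like cells, marked by Pdgfra and Cspg4, came next. In the layer 5 extratelencephalic-like class Nav1 stood at 743 CPM in C57BL/6J, 530 CPM in Nav1 KO and 167 CPM in BTBR. In oligodendrocyte precursor-like cells it stood at 657, 470 and 316 CPM in the same order of libraries. The layer 5 extratelencephalic-like class therefore ranked the second highest in C57BL/6J and Nav1 KO, but it ranked only 6 of 18 in BTBR.

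Sst or Pvalb interneuron-like nuclei followed with 462, 342 and 186 CPM, and Vip or Adarb2 interneuron-like nuclei with 414, 310 and 184 CPM. Layer 2/3-like neurons, the upper-layer cells marked by Cux2 and Otof, held 354, 228 and 142 CPM. At the low end stood layer 6 corticothalamic-like neurons, marked by Foxp2 and Hs3st4, with 131, 73.1 and 59.0 CPM, and astrocyte-like nuclei with 108, 65.6 and 39.7 CPM. The lowest class was astrocyte-like in C57BL/6J and BTBR but medium spiny neuron-like (64.1 CPM) in Nav1 KO. The highest class exceeded the lowest by 10.1-fold in C57BL/6J, 13.6-fold in Nav1 KO and 8.95-fold in BTBR. Of the 17 pairs of neighbours in the order of mean levels, 0 had separate intervals in all 3 libraries. The order of neighbouring classes was therefore not settled, also at its ends, although the highest and lowest classes lay far apart.

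Nav2 had a flatter distribution with the same class at its head. Mitral or tufted-like nuclei held 837 CPM in C57BL/6J, 762 CPM in Nav1 KO and 852 CPM in BTBR, and they were separated from the next class, microglia-like nuclei, in all 3 libraries. Layer 6 corticothalamic-like neurons, near the bottom for Nav1, were among the highest for Nav2, with 607, 483 and 502 CPM. Meningeal fibroblast-like nuclei were lowest on average, with 156, 142 and 120 CPM.

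Nav3 was highest in Vip or Adarb2 interneuron-like nuclei, which held 651, 638 and 682 CPM in C57BL/6J, Nav1 KO and BTBR. Sst or Pvalb interneuron-like nuclei held 559, 567 and 494 CPM, the second highest level in C57BL/6J and Nav1 KO but below microglia-like nuclei (545 CPM) in BTBR. Astrocyte-like nuclei were the lowest in every library, with 43.8, 44.1 and 49.3 CPM, which put the highest class 13.8-fold to 14.9-fold above them. The plot of levels by class shows these 3 distinct profiles.

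**Figure D1:**
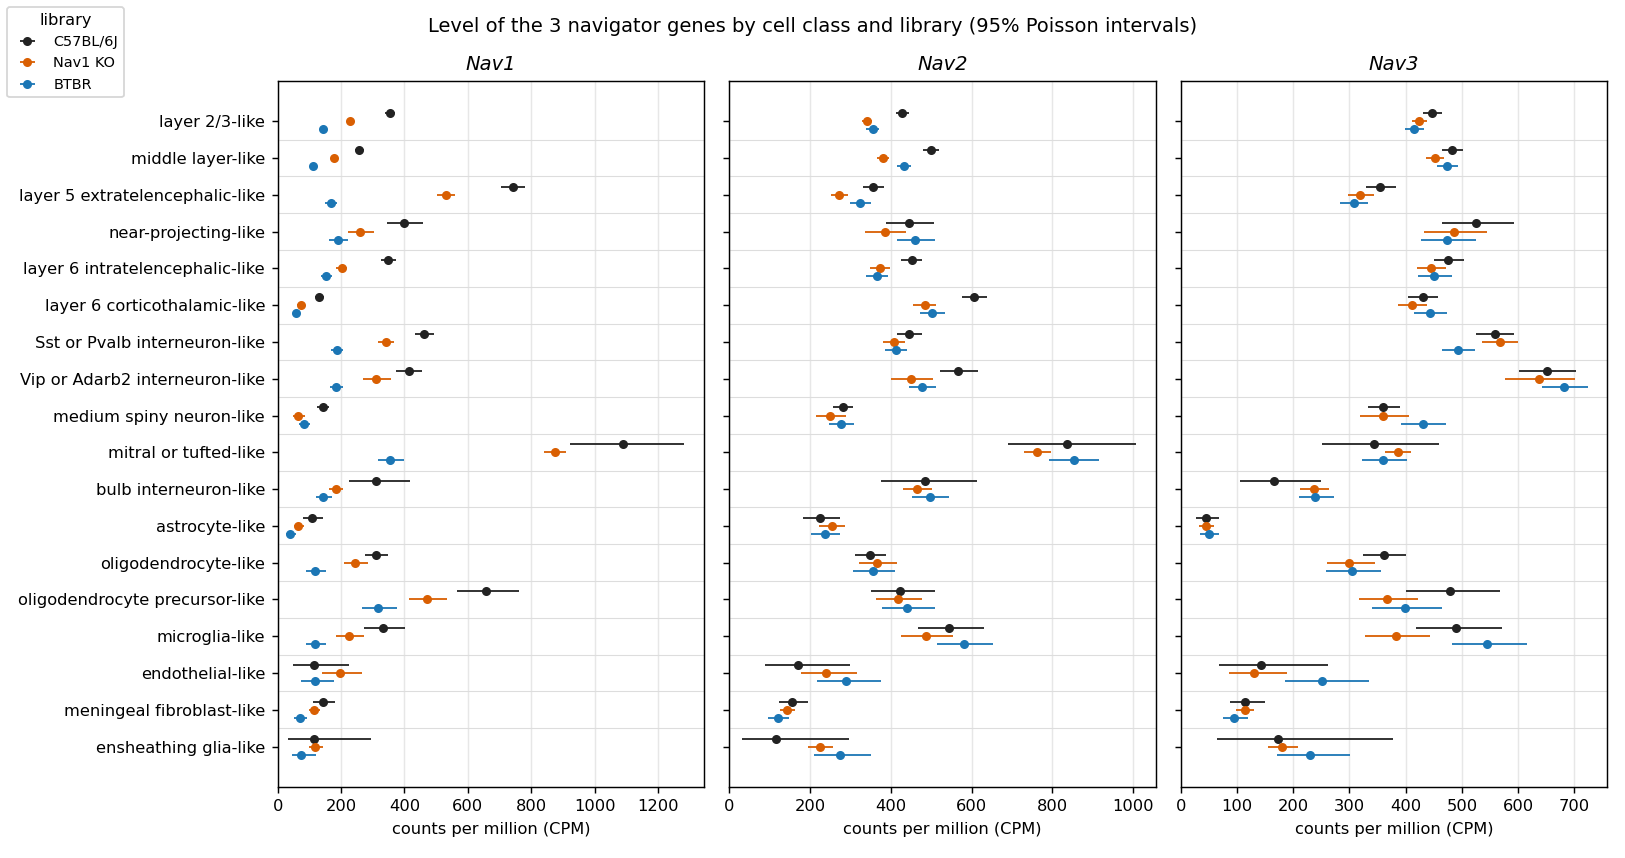
CPM (x axis) of Nav1, Nav2 and Nav3 in 18 marker-defined cell classes (y axis). Points are the 3 libraries and bars are 95% Poisson intervals for counting error. Nav1 points fall apart by library, with BTBR below C57BL/6J in 17 of 18 classes, whereas Nav2 and Nav3 points lie close together.

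Levels in non-neuronal and interneuron-like classes have to be read beside the excitatory neuron RNA found in them. Slc17a7, the vesicular glutamate transporter that defines cortical excitatory neurons, stood at 345 to 488 CPM in microglia-like nuclei, 401 to 435 CPM in oligodendrocyte-like nuclei and 273 to 357 CPM in oligodendrocyte precursor-like nuclei, against 696 to 907 CPM in layer 2/3-like neurons. In microglia-like nuclei Nav2 was at 545, 487 and 581 CPM and Nav3 at 490, 382 and 545 CPM, close to cortical neurons. In astrocyte-like nuclei, where Nav3 was lowest, Slc17a7 was at 114 to 137 CPM. In Sst or Pvalb interneuron-like nuclei Slc17a7 was at 261 to 289 CPM, beside 210 to 268 CPM of the inhibitory marker Gad1. In Vip or Adarb2 interneuron-like nuclei it was at 254 to 347 CPM, beside 326 to 426 CPM of Gad1. The part of excitatory neuron RNA in the glial and interneuron levels was not tested. Nav1 in oligodendrocyte precursor-like cells exceeded its level in layer 2/3-like neurons in all 3 libraries.

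Against C57BL/6J, Nav1 was lower in Nav1 KO and lower still in BTBR. To keep class sizes from setting the result, each library's class levels were weighted by the same class shares (the class-standardised level). Nav1 then fell from 359 CPM in C57BL/6J to 248 CPM in Nav1 KO, a ratio of 0.689 (0.666 to 0.713), and to 140 CPM in BTBR, a ratio of 0.389 (0.373 to 0.405), or 2.57-fold lower. Over all kept nuclei without weighting, the ratio was 0.766 (0.748 to 0.785) for Nav1 KO and 0.423 (0.410 to 0.435) for BTBR. The libraries were counted on the same reference, mm10, and the paper reports sequence differences between inbred strains within or near Nav1. Their effect on the BTBR counts was not tested.

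Among genes with enough counts, the median class-standardised ratio for Nav1 KO was 0.912, so that library's ratios as a whole lay below 1, and Nav1 relative to this median stood at 0.756. Of 3754 genes, 140 (3.73%) had a lower ratio than Nav1. By a 1.5-fold limit 2.61% of genes were lower and 1.62% higher in Nav1 KO, and Nav1 at 1.45-fold did not pass it. For BTBR the median ratio was 0.997. There 3.73% of 3966 genes were lower by 1.5-fold or more and 4.56% higher. Nav1 was among the lower genes, and only 22 genes (0.555%) had a lower ratio.

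**Figure D2:**
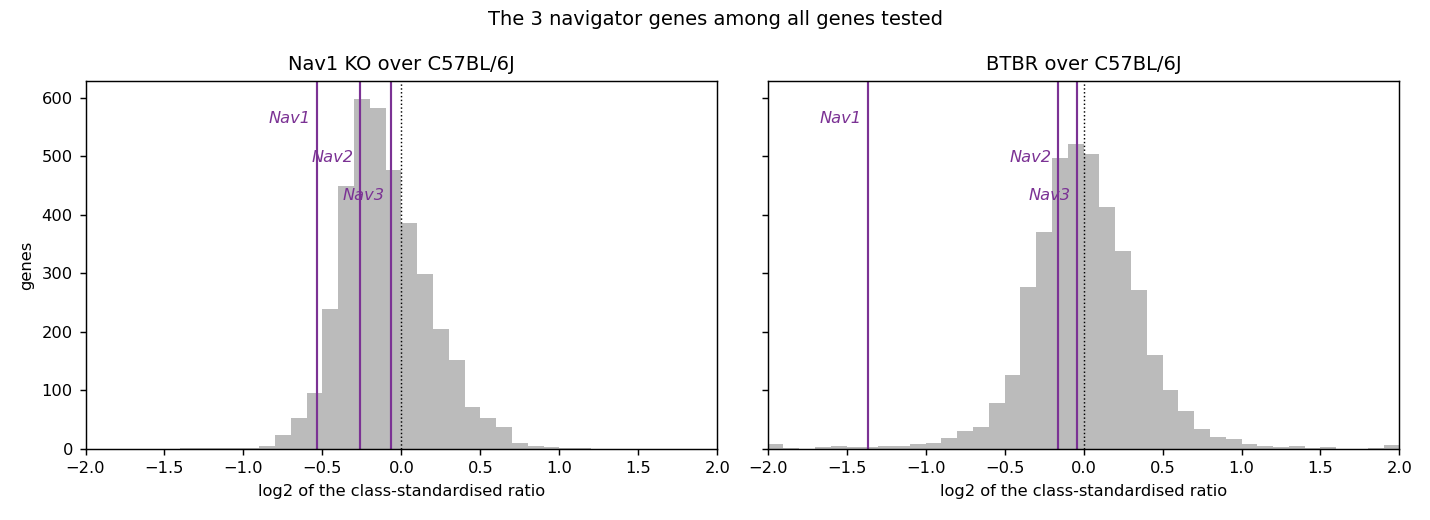
Number of genes (y axis) by the log2 of their class-standardised ratio (x axis) for each comparison, with genes beyond the axis in the end bars and vertical lines at the 3 navigators. Nav1 lies in the lower tail of both histograms, with 3.73% and 0.555% of genes below it, and Nav2 and Nav3 lie within their bulk.

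Nav1 was lower in classes of both neurons and glia, although the glial classes also held the neuronal Slc17a7. The part of neuronal RNA in the glial Nav1 ratios was not tested. In Nav1 KO the ratio was below 1 in 16 of 18 classes, and in 15 of them the interval was below 1. For comparison, 0.932% of tested genes had an interval below 1 in at least as many classes. Ratios ran from 0.449 (0.322 to 0.613) in medium spiny neuron-like nuclei, the striatal cells marked by Rgs9 and Penk, to 0.801 (0.677 to 0.953) in the mitral or tufted-like class among those with an interval below 1. In the mitral or tufted-like class the median gene was itself at 0.853 and 43.0% of tested genes lay below Nav1. In oligodendrocyte-like nuclei 27.1% did, so that Nav1 was not set apart from other genes in either class. The share was 0.0544% to 5.73% in medium spiny neuron-like, layer 2/3-like, middle layer-like, both layer 6 and astrocyte-like classes. In the remaining classes with an interval below 1 it was 9.92% to 19.9%, the highest in oligodendrocyte precursor-like nuclei. Meningeal fibroblast-like nuclei had a Nav1 ratio of 0.803 (0.609 to 1.07). Endothelial-like and ensheathing glia-like nuclei had ratios of 1.72 and 1.02, but these rested on 8 and 4 Nav1 counts in C57BL/6J and their intervals reached from 0.796 to 4.25 and from 0.389 to 3.82.

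In BTBR the Nav1 ratio was below 1 in 17 of 18 classes with an interval below 1 in 16, against 0.782% of tested genes with at least as many. The lowest ratio was in the layer 5 extratelencephalic-like class, at 0.225 (0.199 to 0.255), where 1471 counts in 539 C57BL/6J nuclei stood against 310 counts in 450 BTBR nuclei. Other cortical classes lay between 0.402 in layer 2/3-like and 0.477 in near-projecting-like neurons, and none of their intervals overlapped that of the layer 5 extratelencephalic-like class. The layer 2/3-like and middle layer-like ratios, however, set C57BL/6J nuclei mostly against BTBR nuclei of other clusters. In the clusters with most C57BL/6J nuclei of these classes, Nav1 stood at 353.4 CPM in C57BL/6J against 123.5 CPM in 89 BTBR nuclei (layer 2/3-like). In the middle layer-like cluster it stood at 260.2 CPM against 72.3 CPM in 202 BTBR nuclei. Whether the layer 5 extratelencephalic-like class stands apart from these clusters was not tested. Mitral or tufted-like nuclei had 0.326 (0.267 to 0.3995). An unnamed excitatory cluster led by Ndst4 and Abi3bp, with Slc17a7 at 925 CPM, went the same way, with Nav1 at 609 CPM in C57BL/6J, 408 CPM in Nav1 KO and 200 CPM in BTBR.

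Nav2 was modestly lower in Nav1 KO. Its class-standardised level was 451 CPM in C57BL/6J against 375 CPM in Nav1 KO, a ratio of 0.832 (0.809 to 0.856). The intervals were below 1 in 6 classes, which were the layer 2/3-like (0.796), middle layer-like (0.762), layer 5 extratelencephalic-like (0.765), layer 6 intratelencephalic-like (0.825), layer 6 corticothalamic-like (0.796) and Vip or Adarb2 interneuron-like (0.792) classes, and 25.9% of tested genes had at least as many such classes. In the middle layer-like class, for example, Nav2 stood at 499 CPM in C57BL/6J against 380 CPM in Nav1 KO. In the other 9 classes in which Nav1 was lower the Nav2 interval held 1, among them oligodendrocyte-like nuclei at 1.05 (0.886 to 1.24) and astrocyte-like nuclei at 1.12 (0.885 to 1.43), but also medium spiny neuron-like nuclei at 0.890 (0.748 to 1.06), whose interval overlapped those of the 6 classes. Differences between classes were not tested.

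This Nav2 difference was within the range of other genes. Relative to the median gene it was 0.912, and 28.5% of tested genes had a lower ratio. In layer 2/3-like and middle layer-like neurons 24.6% and 15.5% of tested genes lay below Nav2. In 0 of 18 classes was the Nav2 interval above 1.

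Nav3 differed least by the class-standardised ratio, but not over all kept nuclei without weighting. There the Nav1 KO ratio was 0.870 (0.852 to 0.888) for Nav3 and 0.875 (0.857 to 0.893) for Nav2. The class-standardised level of Nav3 was 425 CPM in C57BL/6J against 406 CPM in Nav1 KO, a ratio of 0.955 (0.929 to 0.980). Of the tested genes, 59.1% had a lower ratio. Divided by the median gene the ratio was 1.05, so its direction flipped with the scaling. Nav3 intervals were below 1 in 6 classes and above 1 in 0, and 25.9% of tested genes had 6 or more classes below 1. Of these 6, the layer 2/3-like and middle layer-like ratios turned to 1.04 and 1.03 when divided by the class-standardised median of all tested genes (0.912). Divided by the median gene of their own class they were 1.05 and 1.02. The oligodendrocyte-like ratio turned to 2.56 (1.65 to 4.18) when each library was clustered on its own. The lowest of those 6 were oligodendrocyte precursor-like nuclei at 0.765 (0.610 to 0.963) and microglia-like nuclei at 0.780 (0.627 to 0.971), in which the neuronal Slc17a7 was also present. In the Sst or Pvalb and the Vip or Adarb2 interneuron-like classes the Nav3 ratios were 1.02 (0.933 to 1.10) and 0.979 (0.863 to 1.11).

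In BTBR, where Nav1 was lowest, Nav2 was modestly lower by the class-standardised ratio and Nav3 was close to the C57BL/6J level. The Nav2 ratio was below 1 in 9 of 18 BTBR classes with a median class ratio of 1.002, against 14 of 18 and 0.902 in Nav1 KO. Nav2 had a class-standardised ratio of 0.893 (0.867 to 0.919), or 0.896 relative to the median gene, with 29.7% of tested genes lower, and Nav3 one of 0.970 (0.943 to 0.997) with 44.7% lower. Of the 16 classes in which the Nav1 interval was below 1, Nav2 was below 1 in 5 (from 0.809 in layer 6 intratelencephalic-like to 0.866 in middle layer-like neurons), above 1 in 0 and held 1 in 11. Nav3 was below 1 in 3 classes, above 1 in 1 and held 1 in 12. At least as many classes below 1 were found for 21.2% of tested genes in the case of Nav2 and 32.2% in that of Nav3. The class above 1 was medium spiny neuron-like nuclei, with 360 CPM in C57BL/6J and 430 CPM in BTBR, a ratio of 1.19 (1.06 to 1.35). In that class the median gene was itself at 1.035 and 69.2% of tested genes lay below Nav3, so that Nav3 was not set apart from other genes. In the layer 5 extratelencephalic-like class, with the lowest Nav1 ratio, Nav2 stood at 356 and 324 CPM and Nav3 at 355 and 307 CPM in C57BL/6J and BTBR. Both comparisons share the C57BL/6J library, so a chance deviation there would enter both.

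**Figure D3:**
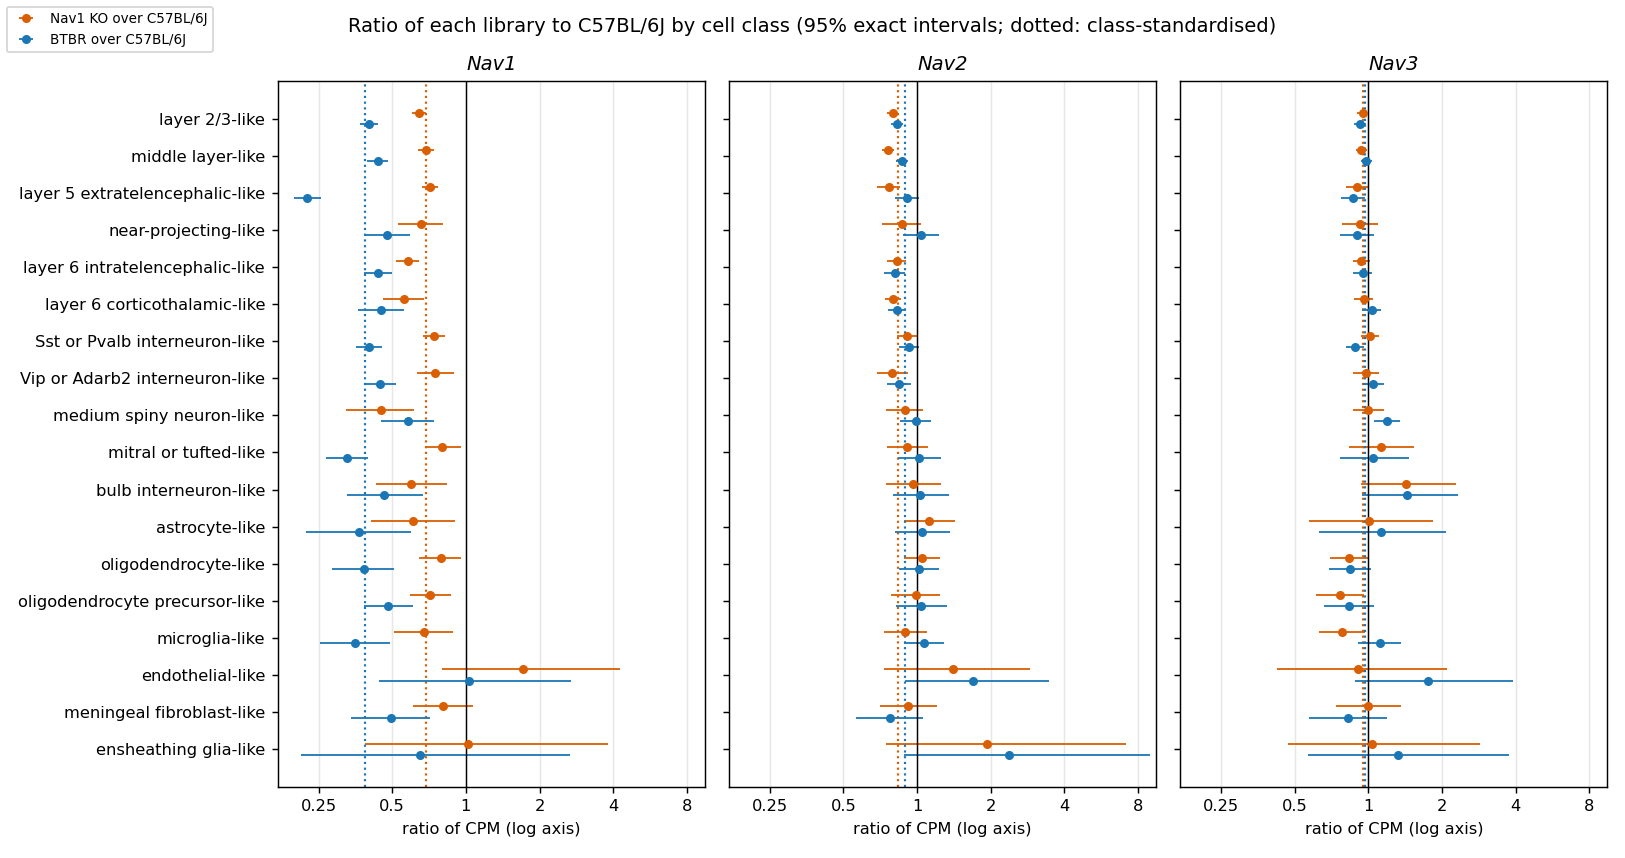
Ratio of CPM to C57BL/6J (x axis, log scale) for Nav1 KO and BTBR in 18 cell classes (y axis), with 95% exact intervals and dotted lines at the class-standardised ratios. Outside the endothelial-like and, for Nav1 KO, ensheathing glia-like classes, Nav1 ratios lie at 0.449 to 0.803 (Nav1 KO) and 0.225 to 0.650 (BTBR). Nav2 and Nav3 ratios lie on both sides of 1. Their intervals lie below 1 in 6 classes each for Nav1 KO and in 5 and 3 for BTBR. Only that of Nav3 in BTBR medium spiny neuron-like nuclei lies above 1.

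The share of nuclei with at least 1 navigator UMI was also compared at equal depth. UMIs were drawn at random until every nucleus held 1000, and shallower nuclei (2394 of C57BL/6J, 1249 of Nav1 KO and 2096 of BTBR) were not used. Nav1 was then detected in 26.2% of C57BL/6J (25.5 to 27.0), 18.7% of Nav1 KO (18.1 to 19.4) and 13.0% of BTBR nuclei (12.4 to 13.6), against 45.4%, 41.4% and 31.2% before thinning. Nav2 was detected in 34.5%, 29.5% and 32.2% and Nav3 in 33.4%, 27.4% and 30.6% of thinned nuclei, and before thinning in 56.0%, 57.9% and 58.9% and in 54.7%, 54.6% and 56.95%.

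In the layer 5 extratelencephalic-like class Nav1 was detected in 48.9% (44.5 to 53.2), 38.1% (33.8 to 42.5) and 14.3% (11.2 to 17.9) of thinned nuclei. Unthinned shares were 82%, 75.7% and 46.4%, at a median of 3260, 3911 and 3552 UMIs. No class is known to lack all navigators, so no background share could be measured. Nav3 in astrocyte-like nuclei was detected in 3.06%, 4.94% and 4.50% at a median of 1051, 1458 and 1452 UMIs. Nav1 was detected in 3.54% of BTBR astrocyte-like nuclei and in 4.87% and 4.96% of layer 6 corticothalamic-like nuclei of Nav1 KO and BTBR. The part of free RNA in such low shares was not tested.

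Over all thinned nuclei, each pair of members was found together more often than their separate shares would give. UMIs of both Nav1 and Nav2 were found in 1154 C57BL/6J nuclei, where unrelated detection would give 1108. The observed number over the unrelated one was 1.04, 1.18 and 1.15 for Nav1 and Nav2 in C57BL/6J, Nav1 KO and BTBR. It was 1.04, 1.10 and 1.16 for Nav1 and Nav3, and 1.06 in each library for Nav2 and Nav3. These values pool classes with unlike levels. Within the 6 to 12 classes where at least 20 nuclei with both were due by unrelated detection, medians lay between 0.978 and 1.11 and single classes between 0.781 and 1.32. Classes with fewer lay further out and are not read. Across all thinned C57BL/6J nuclei 33.1% held a UMI of 0 of the 3 members, 43.0% of 1, 20.4% of 2 and 3.48% of all 3.

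Over 52 pairs of class and library with at least 50 nuclei, the profiles of the members resembled each other only in part. Pearson's r of log2(CPM + 5) was 0.489 between Nav1 and Nav2, 0.487 between Nav1 and Nav3 and 0.680 between Nav2 and Nav3, as a description over points that share libraries and depth. Of 7659 genes, those most like Nav1 were D830024N08Rik (0.738), Disp2 (0.689), Cep164 (0.685), Hook2 (0.681) and Lrrtm1 (0.666). Those most like Nav2 were Srrm4, a splicing regulator of neural microexons (0.838), the L-type calcium channel gene Cacna1d (0.808), Rufy3 (0.791), Odf2 (0.785) and Snap91 (0.781). Nav3 was most like Rims2 (0.917), the long noncoding RNA Gm19938 (0.914), Mycbp2 (0.901), Rims1 (0.897) and Ank3 (0.895), of which the Rims genes encode scaffolds of the presynaptic active zone and Ank3 encodes the ankyrin of the axon initial segment. Of the 5 genes most like Nav1, D830024N08Rik had class-standardised ratios of 0.630 for Nav1 KO and 0.549 for BTBR. In the same order the ratios were 0.95 and 0.752 for Disp2, 0.786 and 0.849 for Cep164 and 0.809 and 0.546 for Hook2. Lrrtm1, at 1.08 and 0.885, was too low to be among the genes compared. Because the correlation spanned the 3 libraries, a gene that differed between them as Nav1 did was favoured in the choice. These ratios are therefore not separate support for a shared change.

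Genes that work beside the navigators passed 1.5-fold about as rarely as other genes. Of 57 genes in 4 lists, 40 could be compared for Nav1 KO, of which 0 were lower by 1.5-fold or more and 1 was higher, and 42 for BTBR, of which 1 was lower and 1 higher. Over all tested genes 2.61% were lower and 1.62% higher in Nav1 KO and 3.73% and 4.56% in BTBR. Their median ratios were 0.910 and 0.992, beside 0.912 and 0.997 over all tested genes.

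Among the microtubule plus-end tracking proteins, the partners at growing ends, the median ratio was 0.909 over 12 genes in Nav1 KO and 0.969 over 12 genes in BTBR. In each list the genes with the highest and lowest ratio over all Nav1 KO nuclei, without weighting, are named, and the values given are class-standardised, in which the order can differ. The highest were Dctn1, a dynactin subunit, and Mapre3, an end-binding protein, with 1.28 and 1.10. The lowest were Clasp2 and Clasp1, which stabilise microtubules at the cell edge, with 0.787 and 0.730, and Macf1 lay between them at 0.764. Other neuronal microtubule proteins had medians of 1.01 and 1.06. The tubulin genes Tuba1a and Tubb3 had 1.60 and 1.45 in Nav1 KO and 1.48 and 1.45 in BTBR. Map2, the dendritic microtubule-associated protein, and Camsap1, which binds minus ends, had 0.767 and 0.879 in Nav1 KO.

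Trio, Rac and WAVE regulators had medians of 0.872 in Nav1 KO and 0.9503 in BTBR. Trio itself stood at 0.801 (0.770 to 0.833) and 0.978 (0.940 to 1.02). Cyfip1, a subunit of the WAVE complex that drives actin branching, was lowest at 0.673 and 0.665 and was the gene past 1.5-fold lower in BTBR. In Nav1 KO Wasf1 had 0.836, Abi1 1.13 and Elmo2 0.930. Rac1 was the gene past 1.5-fold higher in BTBR, at 1.59.

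The netrin ligands and receptors, which guide axons, were mostly too low to compare, with 4 of 11 genes tested in Nav1 KO and 5 in BTBR. Unc5c and Unc5a, netrin receptors that mediate repulsion, had 0.752 and 0.751 in Nav1 KO and 0.816 and 0.823 in BTBR, and the receptor gene Neo1 had 1.09 and 1.13. Ntng1 was higher over all Nav1 KO nuclei at 1.78 but only 1.03 after standardisation, when each library had the same share of every class.

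**Figure D4:**
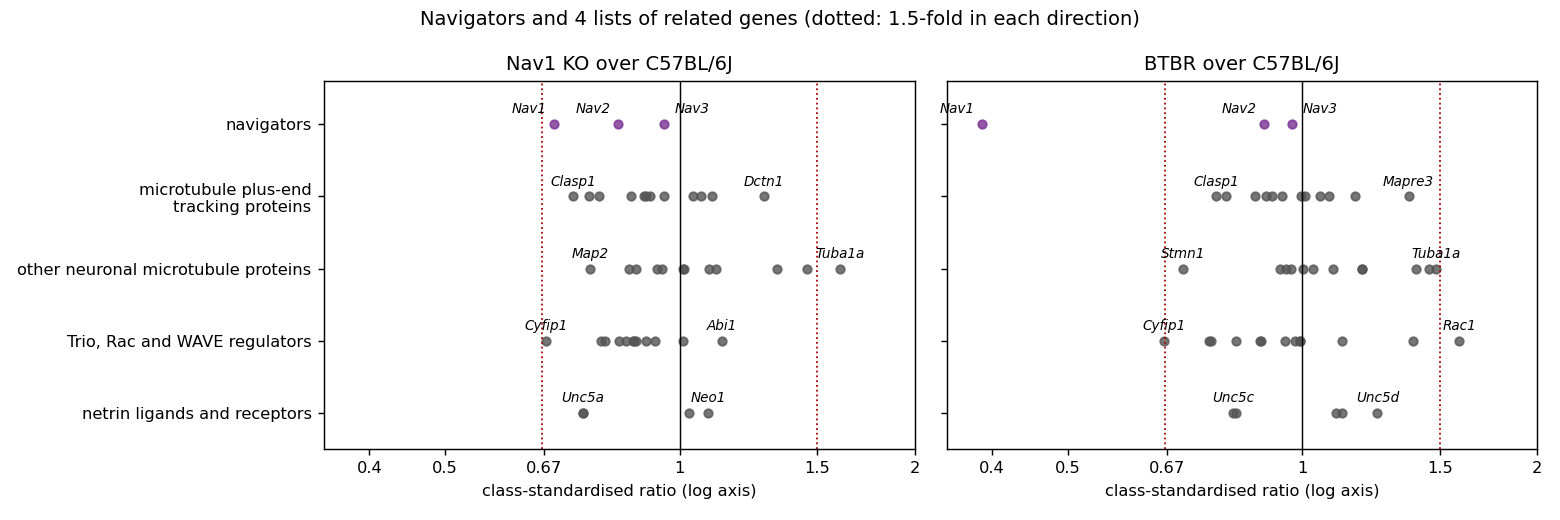
Class-standardised ratio to C57BL/6J (x axis, log scale) of the 3 navigators and of the tested genes in 4 lists (y axis), with the outermost genes named. In BTBR Nav1 at 0.389 lies below all listed genes, and in Nav1 KO only Cyfip1 at 0.673 lies below Nav1 at 0.689.

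Genes beside Nav1 on chromosome 1 were added after their values were seen. Within 500 kb of Nav1, 5 other genes could be compared, too few to read against the 2.61% and 1.62% (Nav1 KO) or 3.73% and 4.56% (BTBR) of all genes past 1.5-fold, with class-standardised ratios of 0.817 to 1.24 in Nav1 KO and 0.904 to 1.42 in BTBR. Ipo9, the nearest of them on the 3′ side of Nav1, stood at 0.817 (0.758 to 0.881) and 1.204 (1.12 to 1.30). Gm4793, an antisense transcript from 135584773 to 135599948 on the plus strand that starts inside Nav1 exon 1, was also looked at after the fact. It was rare, with 159 counts (4.11 CPM) in C57BL/6J, 147 counts (2.88 CPM) in Nav1 KO and 356 counts (7.28 CPM) in BTBR. Over all kept nuclei, without the class weighting used for Ipo9, its ratio was 0.702 (0.557 to 0.884) for Nav1 KO and 1.77 (1.47 to 2.15) for BTBR. It was thus higher in the library with the lowest Nav1 and lower in the Nav1 KO library. Its level lay far below the limit of 50 CPM set for compared genes, and the share of equally low genes that differ was not taken. The contrast with Nav1 is therefore not read as a result. The annotated start of Gm4793 lies within the printed end of exon 1, where the Nav1 KO carries its deletion. What the deletion does to the Gm4793 counts was not tested. Since strand use in counting is not given in the sources used here, Gm4793 reads may include some of Nav1.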

How the data were processed

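Prefrontal nuclei had been sorted by NeuN staining, with both positive and negative nuclei collected, and sequenced by the authors with 10x Genomics 3′ chemistry. The deposited files hold UMI counts per gene and barcode made with Cell Ranger 6.0.0 on mm10. Whether introns were counted is not given in the sources used here. Genes in under 3 nuclei of a library, nuclei under 200 genes and nuclei with 10% or more mitochondrial counts were left out. The kept nuclei held 38701384 (C57BL/6J), 50962468 (Nav1 KO) and 48936236 (BTBR) counts. Clustering used Seurat 5.3.0 in R 4.3.3 (10000 counts per nucleus, natural log, 2000 variable genes without the navigators, 30 principal components, Louvain resolution 1.0). A cluster was named when a marker list had a median fold of at least 1.8 over the other clusters, most of its markers (at least 3) reached 1.5-fold, the next list of another kind was lower by 1.5-fold, and no more than 40% of the cluster lay in the top 10% of doublet scores. These limits were set after the clusters were seen, and the members and lists were chosen with earlier results of these data known. Counts were summed per class and library, with exact 95% Poisson, binomial-split and Clopper-Pearson intervals and a delta-method interval for the standardised ratio. Genes were compared at 50 CPM or more in 1 library and 20 counts or more in the other. The text names the navigators, the 5 genes most like each, and per list the 2 highest and 2 lowest ratios in Nav1 KO. Ratios and intervals were tested on simulated Poisson counts without spread between nuclei or mice, which checks the calculation only.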

Additional observations from a re-analysis of the deposited data

Results flagged for a closer look

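Nav3 in medium spiny neuron-like nuclei was looked at again because its BTBR over C57BL/6J ratio of 1.19 (1.06 to 1.35) went the opposite way from 3 other classes, in which Nav3 was lower, with ratios of 0.928 in layer 2/3-like, 0.866 in layer 5 extratelencephalic-like and 0.884 in Sst or Pvalb interneuron-like nuclei. In medium spiny neuron-like nuclei 69.2% of tested genes had a lower ratio than Nav3, so the value was within the range of other genes. The difference between classes was not tested, since each group is 1 library. The ratio was 0.996 with 10 principal components and resolution 0.3 and 0.904 when each library was clustered on its own.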

How the results depend on the processing

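No paired analysis was possible because each group is 1 library, and for the same reason no library could be left out in turn. The class-standardised ratios of Nav1 and Nav2 stayed below 1 under all 8 alternatives tried. For Nav1 KO, Nav1 was 0.739 without mitochondrial genes and Malat1 in the total, 0.756 over the median gene, 0.65 with each library clustered on its own and 0.662 as a mean over nuclei. Nav2 was 0.893, 0.912 and 0.801 under the first 3 of these, 0.857 with 10 principal components and resolution 0.3 and 0.802 after thinning. Nav3 turned to 1.03 without mitochondrial genes and Malat1 and to 1.05 over the median gene, and was 0.899 with resolution 0.3. Its layer 2/3-like and middle layer-like ratios turned likewise, to 1.03 and 1.0 and to 1.04 and 1.03. For BTBR, Nav1 was 0.41 after thinning and Nav2 0.844 with separate clustering. Nav3 in medium spiny neuron-like nuclei turned to 0.996 (resolution 0.3) and 0.904 (separate clustering), and in Nav1 KO oligodendrocyte-like nuclei to 2.56 (separate clustering). The cause was not tested. Resolution 0.3 named 8 classes and separate clustering 14 of the 18.

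The number of genes past 1.5-fold could only rise as lower ones were admitted. With 20 CPM and 10 counts, 202 were lower and 145 higher in Nav1 KO and 303 and 393 in BTBR. With no filter beyond 1 count in each library they were 2549, 1708, 2818 and 2339. The numbers of genes tested under these looser filters are not given here, so these counts are not read as shares. At 500 UMIs the shares in C57BL/6J, Nav1 KO and BTBR were 14.5%, 9.8% and 6.87% for Nav1, 19.1%, 15.6% and 18.0% for Nav2 and 17.9%, 14.7% and 17% for Nav3. By Spearman's rho, 4 of the 5 genes most like Nav1, 2 for Nav2 and 1 for Nav3 stayed among the 5. Few counts limited mainly the C57BL/6J values of the endothelial-like and ensheathing glia-like classes, where 3 counts made 42.8 and 86.65 CPM. In the mitral or tufted-like and bulb interneuron-like classes 3 counts made 22.4 and 21.6 CPM. Nav3 in astrocyte-like nuclei rested on 19 counts in C57BL/6J.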

Other observations

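The largest cluster, which earned no class name, held 2568 C57BL/6J, 376 Nav1 KO and 1677 BTBR nuclei at a median of 907 UMIs. In it Nav1 stood at 314, 234 and 125 CPM, Nav2 at 397, 246 and 376 CPM and Nav3 at 357, 164 and 348 CPM in that order of libraries. Its leading genes included Gm12940, Dynlt1a, Actb and mt-Atp6, and its values enter no comparison above apart from those over all kept nuclei.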
